A study of Mus musculus with 12 samples.

Results

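The genes described here encode the TGF-beta ligands (Tgfb1, Tgfb2, Tgfb3), 2 members of the latent TGF-beta binding protein family (Ltbp1, Ltbp2), the receptors (Tgfbr1, Tgfbr2, Tgfbr3) and the feedback inhibitor Smad7. They were chosen by gene symbol, with earlier results of these data known. All 9 were found, each in 1 row, among the 21493 genes listed in every count table. Their levels were read from poly-A RNA-seq of cardiomyocytes isolated at 3 months of age, in 4 groups of 3 libraries, 12 in all. The groups were Des+/+ non-swim, Des+/+ swim, Des-/- non-swim and Des-/- swim, where Des-/- mice lack desmin, the intermediate filament protein of muscle, and swim mice had undergone swimming exercise. The study's methods describe a GFP transgene under the cardiac αMHC promoter in mice of both genotypes, which the labels do not mention. By those methods the cells of several mice were pooled for each library, and the p-values measure the spread between pools. The desmin loss is germline, so it is present from conception, and hearts were dissociated with trypsin and collagenase with no sort stated for these libraries.

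TGF-beta ligands are secreted in a latent form, bound to their own propeptide and often to a latent TGF-beta binding protein that tethers them to the matrix. Integrins, thrombospondin and proteases release the active ligand, which binds a type II receptor that recruits and phosphorylates the type I receptor, and this in turn phosphorylates Smad2 and Smad3. In the heart the pathway is known for its action on fibroblasts, where it raises collagen and other matrix genes, and cardiomyocytes also carry its receptors. Smad7 is induced by the pathway and blocks it at the type I receptor.

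Without swimming, 6 of the 9 genes were higher in Des-/- than in Des+/+ cardiomyocyte preparations. They were all 3 ligands, the matrix gene Ltbp2 and the receptors Tgfbr1 and Tgfbr2. The increases ran from 1.55-fold for Tgfb2 to 17.1-fold for Ltbp2. After swimming, Tgfb2 alone was called, and no member was called for swimming within a genotype. Among all 13158 genes tested, 32% were called without swimming, 14% as higher and 18% as lower, so that a call was common in this comparison. After swimming 10.6% of genes were called, 5.01% as higher and 5.57% as lower. A call is an adjusted p under 0.05 in edgeR's quasi-likelihood test, adjusted over all genes tested.

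The libraries held between 4320819 and 12072443 reads assigned to genes, the least in the Des-/- swim group. Des itself lay between 50.3 and 101 CPM in the 6 Des-/- libraries and between 973 and 3647 CPM in the 6 Des+/+ libraries. CPM scales each count by its library's TMM-adjusted total. Replicate 3 of both Des-/- groups stood apart in several members, and values without it are given beside several results below. Summed over a list of 8 cardiomyocyte markers, the level was 52149 to 81387 CPM in Des+/+ non-swim and 5199 to 23113 CPM in Des-/- non-swim libraries. The sum of 11 fibroblast markers was 5740 to 7053 against 10751 to 24769 CPM, and that of 9 macrophage markers 205 to 311 against 378 to 3979 CPM. After swimming the fibroblast sum was 5210 to 6241 in Des+/+ and 8221 to 11491 CPM in Des-/- libraries, the macrophage sum 234 to 288 against 205 to 1240 CPM and the cardiomyocyte sum 26489 to 45250 against 13730 to 23551 CPM. No fibroblast or macrophage marker was at 0 in every library of a group. Without swimming 10 of 11 fibroblast, 7 of 9 macrophage and 0 of 9 endothelial markers were called higher, and 8 of 8 cardiomyocyte markers lower. In the same comparison 5 of 5 erythrocyte, 3 of 6 platelet and 2 of 3 lymphocyte markers tested were called higher. Reads in no feature made up 34.0% to 39.3% in Des+/+ non-swim, 45.9% to 50.4% in Des+/+ swim, 34.2% to 52.3% in Des-/- non-swim and 57.2% to 64.5% in Des-/- swim libraries, so the genotypes did not overlap in it after swimming. The part of these markers and of the reads in no feature in the results below was not tested. In such bulk samples, fewer cells of a type and less RNA per cell cannot be told apart.

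Promoters are shown first for 3 of the 6 genes that were called without swimming, chosen after the windows were read: Tgfb1 and Tgfb2 as ligands with unlike promoters, and Ltbp2 as the gene with the largest change of the 9. They are the bases just before the annotated start, from RefSeq on GRCm38.p6, written 5′ to 3′ on the gene's strand. Of the 9 members 6 had windows on the chromosomes read, 8 windows in all, and Tgfb3, Tgfbr3 and Smad7 were not read. Capitals mark matches on either strand to the TATA box with letters TATAAA, the SMAD box with letters CAGAC, the core of a cyclic AMP response element with letters TGACG, the AP-1 site with letters TGANTCA, the GC box with letters GGGCGG and the MCAT site with letters CATTCC. Some of these motifs can share letters with each other or with their own repeats.
Tgfb1, chr7:25686752-25687001, plus strand: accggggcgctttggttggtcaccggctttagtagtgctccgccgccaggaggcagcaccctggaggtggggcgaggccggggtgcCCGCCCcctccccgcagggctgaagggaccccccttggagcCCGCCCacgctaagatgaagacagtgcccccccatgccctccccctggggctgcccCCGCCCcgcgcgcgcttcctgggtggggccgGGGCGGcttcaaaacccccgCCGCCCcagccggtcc
Tgfb2, chr1:186705990-186706239, minus strand: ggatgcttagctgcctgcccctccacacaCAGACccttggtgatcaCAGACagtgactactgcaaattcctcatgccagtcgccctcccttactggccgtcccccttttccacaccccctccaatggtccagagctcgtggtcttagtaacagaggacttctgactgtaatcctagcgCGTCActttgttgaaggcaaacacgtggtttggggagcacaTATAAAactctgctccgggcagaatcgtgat
Ltbp2, chr12:84876533-84876741, minus strand: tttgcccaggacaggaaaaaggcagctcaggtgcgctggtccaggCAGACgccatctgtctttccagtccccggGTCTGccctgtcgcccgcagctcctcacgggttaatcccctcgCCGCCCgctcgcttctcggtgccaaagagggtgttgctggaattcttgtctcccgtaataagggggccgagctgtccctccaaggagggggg
The Tgfb1 window held 5 GC boxes, no TATA box and no SMAD box, and its GC content was 75.2%. The Tgfb2 window, at 53.6% GC, held 1 TATA box, 2 SMAD boxes and 1 core of a cyclic AMP response element, and no GC box. The Ltbp2 stretch held 2 SMAD boxes and 1 GC box, and the 41 bases nearest the RefSeq start, which GENCODE places in an exon, are not printed. Among 32851 RefSeq promoter windows of 250 bases before the start, 42.2% held a SMAD box, 32.7% a GC box, 17.8% the cyclic AMP core, 12.6% an MCAT site, 12.4% a TATA box and 6.75% an AP-1 site. A match is a description of the letters only.

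Tgfb1 (ENSMUSG00000002603, GRCm38 chromosome 7, 25687002 to 25705077, plus strand) encodes the ligand best known for its action on fibroblasts. Its level was 99.1, 80.8 and 101 CPM in replicates 1 to 3 of Des+/+ non-swim and 138, 122 and 185 CPM in those of Des-/- non-swim. Every Des-/- library lay above every Des+/+ library, and the log2 change was 0.67 (SE 0.19, edgeR adjusted p 0.0228), a fold of 1.59. In the swim groups the level was 141, 149 and 149 CPM in Des+/+ and 108, 135 and 172 CPM in Des-/- libraries. These groups overlapped, with a log2 change of -0.08 (SE 0.19, edgeR adjusted p 0.805). Its values in the Des+/+ swim group lay close to those of both Des-/- groups.

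Tgfb2 (ENSMUSG00000039239, chromosome 1, 186622792 to 186705989, minus strand), a ligand with a known part in heart valve development, was the member with a call in both genotype comparisons. It stood at 16.4, 20.9 and 15.7 CPM in Des+/+ non-swim and 26.7, 27.6 and 28.0 CPM in Des-/- non-swim libraries. The log2 change was 0.64 (SE 0.22, edgeR adjusted p 0.0465). After swimming it was 13.0, 12.2 and 12.8 CPM in Des+/+ and 23.6, 14.4 and 29.9 CPM in Des-/- libraries, a log2 change of 0.84 (SE 0.23, edgeR adjusted p 0.0384). The groups did not overlap in either comparison, although replicate 2 of Des-/- swim lay near the Des+/+ values. Both calls sat near the threshold and were lost with a replicate block (edgeR adjusted p 0.0667 without and 0.0562 after swimming). The call after swimming was also lost in a fit of the 6 libraries compared (edgeR adjusted p 0.0768) and with both Des-/- replicate 3 libraries left out (log2 change 0.61, edgeR adjusted p 0.0878).

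Tgfb3 (ENSMUSG00000021253, chromosome 12, 86056745 to 86079041) is the ligand with the highest mean per length in both Des-/- groups, although in replicate 2 of Des-/- swim Tgfb1 was above it (26.8 against 24.9 CPM per kb). It was 57.9, 62.9 and 70.5 CPM in Des+/+ non-swim and 147, 119 and 196 CPM in Des-/- non-swim libraries. No library overlapped, and the log2 change was 1.27 (SE 0.35, edgeR adjusted p 0.0168), a fold of 2.41. After swimming its level was 60.1, 63.9 and 60.3 CPM in Des+/+ and 79.1, 84.2 and 226 CPM in Des-/- libraries. The groups again did not overlap, with replicate 3 of Des-/- far above the other two, and the log2 change of 1.08 (SE 0.35) missed the threshold in edgeR (adjusted p 0.0654). DESeq2 gave an adjusted p of 0.0207 for it and called 3 members in this comparison, Tgfb2, Tgfb3 and Ltbp2, where it called 12.6% of the 18096 genes it tested. With both Des-/- replicate 3 libraries left out, the log2 change of Tgfb3 after swimming was 0.42 (SE 0.14, edgeR adjusted p 0.0760).

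**Figure D1:**
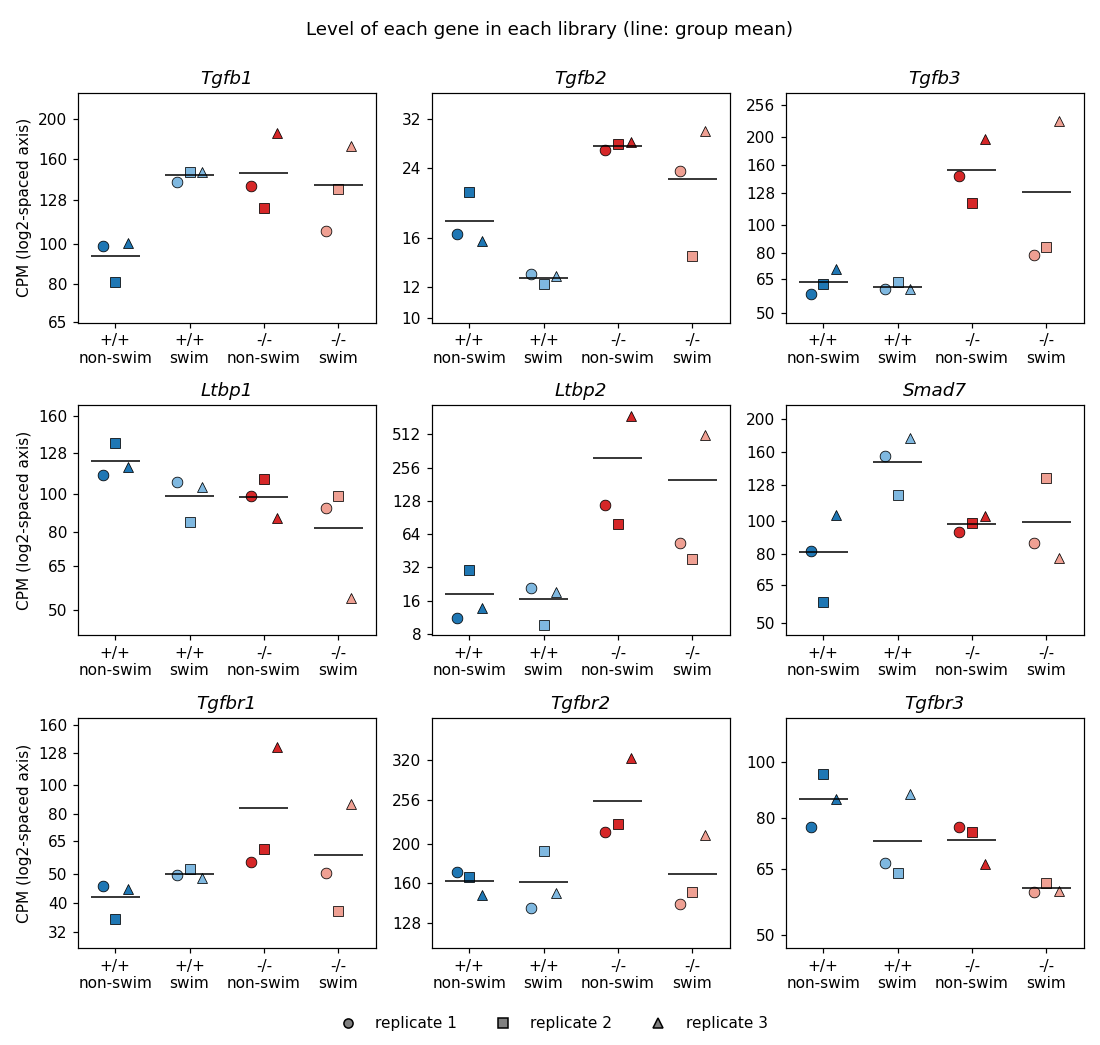
Level of each member in CPM on a log axis, 1 point per library with the symbol giving the replicate number, and a line at the mean of each group of 3. Replicate 3 (triangles) is the highest library of each Des-/- group for Tgfb1, Tgfb2, Tgfb3, Ltbp2, Tgfbr1 and Tgfbr2. Tgfb2 in Des-/- non-swim lies within 26.7 to 28.0 CPM.

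The make-up of the ligand pool also differed between groups. On CPM per kb of exon, the part of Tgfb1 among the 3 ligands was 45.8% ± 3.87 without and 58.8% ± 0.670 with swimming in Des+/+ libraries (SD, n = 3 each). For Des-/- libraries it was 37.0% ± 0.777 and 41.8% ± 8.79 (SD, n = 3 each). Tgfb3 made up 46.6% ± 2.94, 36.8% ± 0.694, 56.9% ± 1.84 and 52.2% ± 9.29 (SD, n = 3 each) in the same order of groups. The shares of Tgfb1 and of Tgfb3 did not overlap between Des+/+ and Des-/- non-swim libraries. Tgfb2 was the least abundant ligand in every library, at 4.16% to 9.45%. These shares are described with no test.

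**Figure D2:**
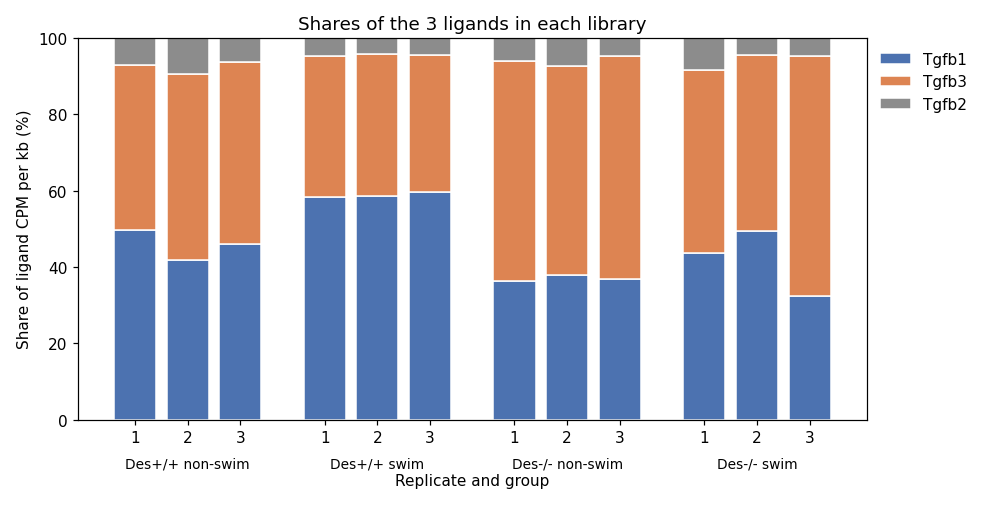
Share of each ligand in the summed CPM per kb of the 3 ligands, in percent, 1 bar per library. Tgfb1 holds 58.3% to 59.6% in the Des+/+ swim libraries and 36.2% to 37.7% in the Des-/- non-swim libraries.

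Of the 2 genes of the binding protein family, Ltbp2 changed and Ltbp1 was not called. Ltbp2 (ENSMUSG00000002020, chromosome 12, 84783212 to 84876532, minus strand) is a matrix protein of the latent TGF-beta binding family that, unlike Ltbp1, is not known to bind latent TGF-beta. It was 11.1, 30.4 and 13.8 CPM in Des+/+ non-swim and 118, 78.5 and 748 CPM in Des-/- non-swim libraries. Each Des-/- library lay above each Des+/+ library, but replicate 3 was far above the other Des-/- libraries, and the log2 change of 4.10 carried an SE of 1.12 (edgeR adjusted p 0.0170). After swimming the values were 20.7, 9.74 and 19.4 CPM against 53.8, 37.8 and 503 CPM. The log2 change was 3.59 (SE 1.10), with an edgeR adjusted p of 0.0574 and a DESeq2 adjusted p of 0.0103. With both Des-/- replicate 3 libraries left out, the change was 2.50 without swimming and 1.49 after it, and both were called (edgeR adjusted p 0.00147 and 0.0382).

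Ltbp1 (ENSMUSG00000001870, chromosome 17, 75005568 to 75392512), which tethers latent ligand to fibrillin-containing matrix, had lower mean values in Des-/- libraries. They were 113, 136 and 118 CPM in Des+/+ non-swim against 98.9, 110 and 86.9 CPM in Des-/- non-swim libraries. The groups did not overlap, yet the log2 change was only -0.31 (SE 0.21, edgeR adjusted p 0.27). After swimming it was 108, 85.0 and 104 against 92.0, 98.8 and 53.7 CPM, and the groups overlapped.

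The receptors differed in what they did. Tgfbr1 (ENSMUSG00000007613, chromosome 4, 47353222 to 47414931), the type I receptor kinase, was 45.8, 35.3 and 44.7 CPM in Des+/+ non-swim and 55.0, 61.1 and 135 CPM in Des-/- non-swim libraries. The log2 change was 1.00 (SE 0.35, edgeR adjusted p 0.0462). It was 0.47, and not called, with replicate 3 of Des-/- non-swim left out. With both Des-/- replicate 3 libraries left out the change was 0.54 (edgeR adjusted p 0.0366). After swimming Tgfbr1 was 49.8, 52.1 and 48.8 against 50.6, 37.6 and 86.2 CPM, with overlapping groups and a log2 change of 0.21 (SE 0.35). In the macrophage marker sum, the same replicate 3 libraries stood at 3979 and 1240 CPM, where the other Des-/- libraries had 205 to 619 CPM. Their fibroblast sums, 24769 and 11491 CPM, were the highest of their groups, and their cardiomyocyte sums, 5199 and 13730 CPM, the lowest. These libraries were also the highest of their groups for Tgfb1, Tgfb2, Tgfb3, Ltbp2 and Tgfbr2. For Tgfb2 without swimming the lead was small, with 28.0 CPM against 27.6 CPM in replicate 2. The part of these markers was not tested.

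Tgfbr2 (ENSMUSG00000032440, chromosome 9, 116084293 to 116175360), the type II receptor kinase that binds ligand first, was 171, 166 and 150 CPM in Des+/+ non-swim and 214, 223 and 325 CPM in Des-/- non-swim libraries. All 3 Des-/- libraries were above the Des+/+ range, with a log2 change of 0.65 (SE 0.21, edgeR adjusted p 0.0323). After swimming it was 139, 192 and 152 against 142, 152 and 210 CPM, and the log2 change was 0.06 (SE 0.21). Tgfbr3 (ENSMUSG00000029287, chromosome 5, 107106570 to 107289629), also named betaglycan, presents ligand and has no kinase. Its level was 77.2, 95.4 and 86.1 CPM in Des+/+ non-swim and 77.1, 75.5 and 66.6 CPM in Des-/- non-swim libraries, a log2 change of -0.24 (SE 0.14, edgeR adjusted p 0.213). After swimming it was 66.6, 64.0 and 87.8 against 59.3, 61.7 and 59.7 CPM. The groups did not overlap in either comparison, and neither change was called. Of the 3 receptors on CPM per kb, Tgfbr3 made up 33.4% ± 3.33 in Des+/+ non-swim and 21.3% ± 5.98 in Des-/- non-swim libraries (SD, n = 3 each).

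Smad7 (ENSMUSG00000025880, chromosome 18), the feedback inhibitor, had its highest level in the Des+/+ swim group. It was 81.4, 57.6 and 104 CPM in Des+/+ non-swim and 92.7, 98.9 and 103 CPM in Des-/- non-swim libraries, which overlapped. After swimming it was 155, 119 and 175 CPM in Des+/+ and 86.3, 134 and 77.7 CPM in Des-/- libraries. The log2 changes between genotypes were 0.28 (SE 0.24, edgeR adjusted p 0.413) and -0.59 (SE 0.25, edgeR adjusted p 0.130), and neither was called.

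In all, 8 of the 9 members had groups that did not overlap without swimming, against 47.9% of all genes, and 4 of 9 after it, against 35.9%. The median log2 change of the members was 0.65 without and 0.06 after swimming, where the medians of all genes were 0.04 and 0.02. Because the members were chosen with earlier results of these data known, these comparisons with all genes are a description only. The genotype comparisons use separate libraries, and their difference is the interaction term, for which no member was called (0% of all genes were).

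**Figure D3:**
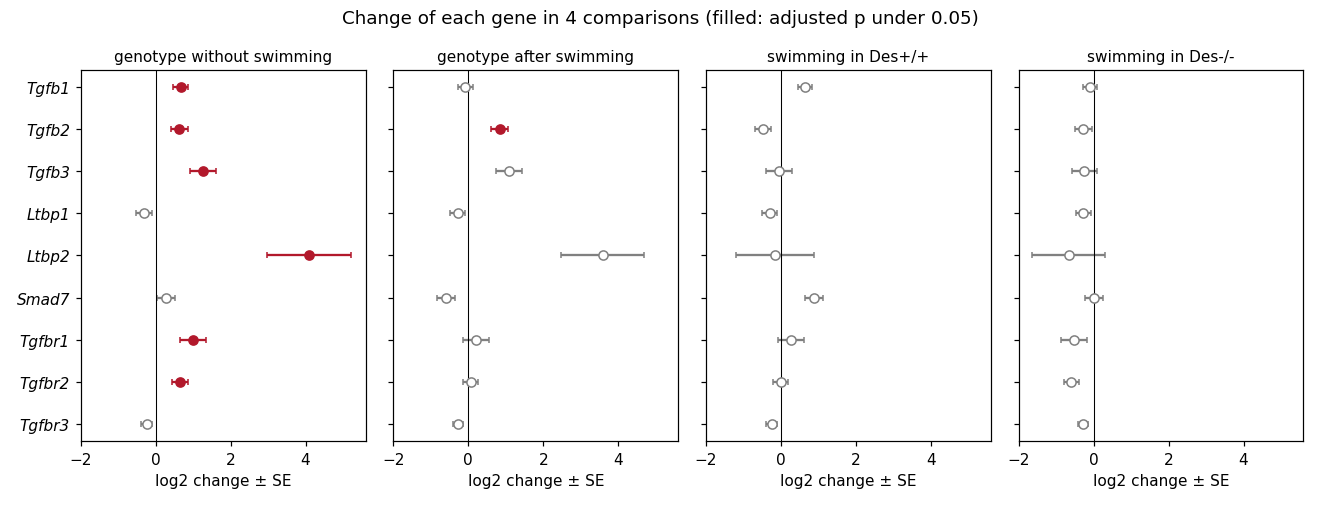
Log2 change with its standard error for each member in 4 comparisons, Des-/- over Des+/+ in the left pair and swim over non-swim in the right pair. Filled points passed an adjusted p of 0.05, which 6 members did without swimming, 1 after swimming and 0 for swimming.

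The calls without swimming depended on single libraries. With replicate 3 of Des-/- non-swim left out, no member was called in edgeR (21.1% of all genes were), and the log2 changes were 0.48 for Tgfb1, 0.63 for Tgfb2, 1.06 for Tgfb3, 2.43 for Ltbp2, 0.47 for Tgfbr1 and 0.43 for Tgfbr2. With replicate 3 of both Des-/- groups left out, all 6 were called (28% of all genes were) at changes of 0.54, 0.69, 1.13, 2.50, 0.54 and 0.50 in the same order. With 1 Des+/+ non-swim library left out, 1 member was called without replicate 1, 1 without replicate 2 and 2 without replicate 3, where 25.5%, 19.5% and 21.9% of all genes were. Tgfb2 and Tgfbr1 lost their calls when any 1 Des+/+ swim library or replicate 1 of Des-/- swim was left out, and Tgfb2 lost its call without replicate 1 or 2 of Des-/- non-swim. The 6 directions were the same in every one of these fits. The call of Tgfb2 after swimming was lost when any 1 Des+/+ swim library was left out, and also without replicate 1 or 3 of Des+/+ non-swim, replicate 1 of Des-/- non-swim, or replicate 1 or 3 of Des-/- swim.

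**Figure D4:**
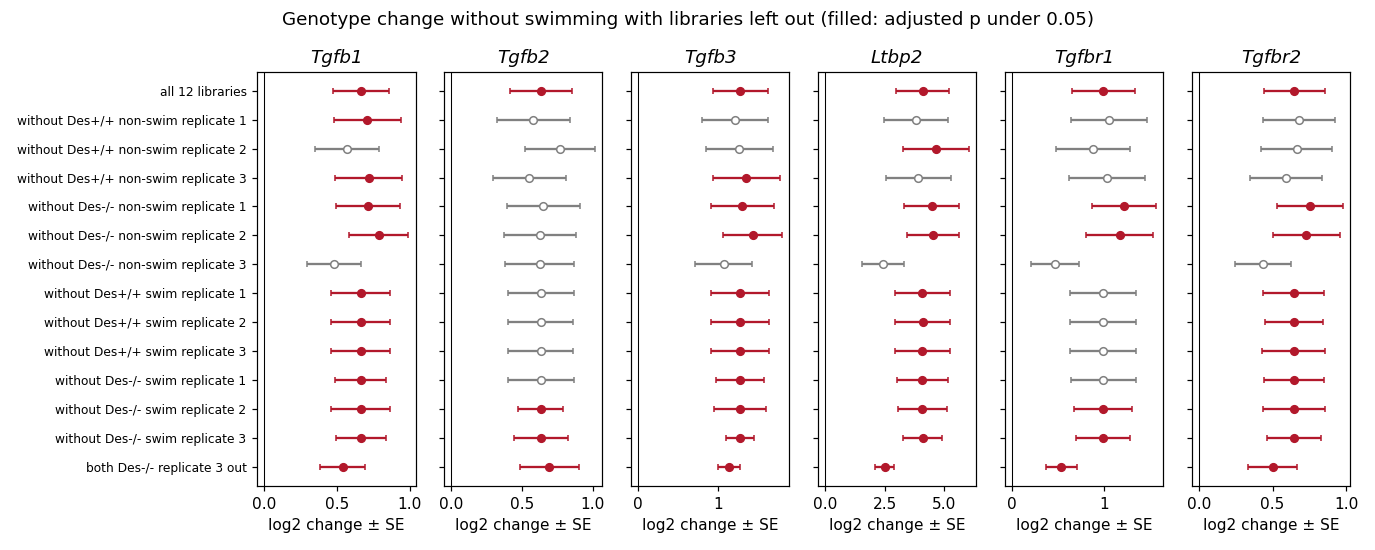
Log2 change of the 6 called members between genotypes without swimming, with its standard error, in the fit of all 12 libraries, with each library left out in turn, and with both Des-/- replicate 3 libraries left out. Filled points passed an adjusted p of 0.05, and every point lies above 0.

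Swimming was compared within each genotype, as an exercise stress. In Des+/+ libraries no member was called by edgeR, in a comparison where 0.0912% of genes were. Of all 13158 genes 2697 had an unadjusted p under 0.05, and so had 2 of the 9 members. These were Tgfb1, with a log2 change of 0.65 (SE 0.19, edgeR adjusted p 0.121), and Smad7, with 0.88 (SE 0.25, edgeR adjusted p 0.110). All 3 swim libraries were above all 3 non-swim libraries for both genes. Between the same groups the cardiomyocyte marker sum was 52149 to 81387 CPM in non-swim and 26489 to 45250 CPM in swim libraries, and the erythrocyte marker sum 179 to 546 and 1391 to 2175 CPM. The reads in no feature did not overlap either (above), and the part of these in the swimming result was not tested. DESeq2 called both (adjusted p 0.0312 and 0.0199), in a test that called 4.37% of genes, and so did edgeR with both Des-/- replicate 3 libraries left out (adjusted p 0.0195 and 0.0398), where 5.62% of genes were called. Tgfb2 was the opposite in sign, lower in all 3 swim libraries with a log2 change of -0.48 (SE 0.23, edgeR adjusted p 0.255). The groups of 5 members did not overlap, against 31.3% of all genes.

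In Des-/- libraries no member was called for swimming by edgeR or DESeq2, and 0.0228% of genes were in edgeR. Same-numbered libraries of these 2 groups deviated together, and 5 members (Ltbp1, Ltbp2, Tgfbr1, Tgfbr2 and Tgfbr3) were lower after swimming in all 3 pairs, as were 24.5% of all genes. In a fit of these 6 libraries with a replicate block no member was called either (0.639% of genes were). The smallest adjusted p there were those of Ltbp2 (log2 change -0.91, SE 0.17, edgeR adjusted p 0.0714) and Tgfbr2 (-0.59, SE 0.13, edgeR adjusted p 0.0877). In the fit of all libraries Tgfbr2 had an unadjusted p under 0.05, as did 2201 of all 13158 genes. Its log2 change was -0.59 (SE 0.21, edgeR adjusted p 0.221), and its 3 swim libraries lay below its 3 non-swim libraries. The groups of 2 members did not overlap, against 19.4% of all genes. The interaction terms with the smallest p were those of Tgfb1, -0.75 (SE 0.27, edgeR adjusted p 0.238), and Smad7, -0.87 (SE 0.35, edgeR adjusted p 0.256). Only these 2 of the 9 members had an unadjusted p under 0.05 there, as did 2148 of all 13158 genes. DESeq2 also called 0 members for the interaction.

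Between genes, levels can be compared only per length, as CPM per kb of merged exons. In Des+/+ non-swim libraries Tgfbr2 (19.8 ± 1.35), Tgfb3 (18.8 ± 1.88), Tgfb1 (18.5 ± 2.19) and Smad7 (17.9 ± 5.12) led, each overlapping the next in range (SD, n = 3 each). Ltbp2 had the lowest mean there, at 2.25 ± 1.28 (SD, n = 3), although in replicate 2 it lay above Tgfb2 (3.71 against 3.61 CPM per kb). In Des+/+ swim libraries Smad7 (33.1 ± 6.28) and Tgfb1 (29.0 ± 0.936) stood above Tgfbr2 (19.6 ± 3.42), and the ranges of Tgfb1 and Tgfbr2 did not overlap (SD, n = 3 each). In Des-/- non-swim libraries Tgfb3 was first (45.5 ± 11.5), followed by Ltbp2 (38.5 ± 45.9), Tgfbr2 (31.0 ± 7.53) and Tgfb1 (29.4 ± 6.55), with neighbouring ranges overlapping (SD, n = 3 each). By its mean, which rests on replicate 3, Tgfb3 was also first in Des-/- swim libraries (38.3 ± 24.6), then Tgfb1 (27.5 ± 6.46) and Ltbp2 (24.2 ± 32.3), whose ranges overlapped (SD, n = 3 each). Tgfb2 had the lowest mean in both Des-/- groups, at 4.74 ± 0.117 and 3.91 ± 1.34 (SD, n = 3 each). In replicate 3 of Des-/- swim it lay above Ltbp1 (5.16 against 5.03 CPM per kb).

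The genes whose log2 CPM followed each member most closely over the 12 libraries are given as a description, since the libraries share genotype, depth and cell mix. For Tgfb1 they were Ppp1r18 (Pearson r 0.97), Hhipl1 and Nckap5l. For Tgfb2 they were Slc1a3 (0.96), Fbln7 and Srgap3, and for Tgfb3 Serpinf1 (0.98), Nkd2 and Col9a2. Ltbp2 was followed by Ltbp3 (0.98), Bgn and Pfkfb4, and Ltbp1 by Gpn3 (0.94), Zfp251 and Patz1. Tgfbr1 was followed by Cd53 (0.97), Alox5ap and Rnase4, and Tgfbr2 by Aldh1a2 (0.97), Fzd8 and Fndc3b. Tgfbr3 was followed by Zc3h7b (0.92), Pfn2 and Prune1, and Smad7 by Syt5 (0.92), Mnt and Asap1.

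The other genes of the pathway were taken as 5 lists with 66 genes tested. Without swimming 29 were higher and 3 lower in Des-/- libraries, and after swimming 6 were higher and 5 lower, to be read against the shares of all genes given above. The latency and activation list held 10 genes that rose, 1 that fell and 5 that were not called without swimming, with a median log2 change of 1.17. Among them were Itgb3, a partner of integrin alpha V (log2 change 1.21, SE 0.20, edgeR adjusted p 0.00153), and the matrix protease Mmp2 (1.14, SE 0.22, edgeR adjusted p 0.00327). The integrin subunit Itgb6 fell by 1.57 on the log2 scale, from a mean of 15.5 to 5.26 CPM. After swimming Ltbp3, a binding protein for latent ligand, was higher by 1.13 (SE 0.29) and Furin, the protease that cleaves the ligand precursors, fell by 0.66 (SE 0.16), and the other 14 were not called.

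The list of co-receptors and other type I receptors held 8 genes, not all of them receptors. Without swimming Gipc1 and Vasn were higher and Bambi, a pseudoreceptor that blocks the pathway, fell by 0.71. These calls made up 37.5% of the list, near the 32% of all genes called there. Eng, Acvrl1, Acvr1, Acvr1b and Tgfbrap1 of this list were not called there. After it Gipc1 was higher and Acvr1b, a type I receptor of activin, fell by 0.63. The list of Smads and partners had 9 genes tested and 1 call without swimming, Tgfb1i1 at 0.65 (SE 0.20, edgeR adjusted p 0.0292). That was 11.1% of those tested, against 32% of all genes. Smad2 had a log2 change of 0.15 and Smad3 of 0.37 there, both not called. After swimming Smad2 fell by 0.50 (SE 0.14, edgeR adjusted p 0.0408), from a mean of 47.3 CPM in Des+/+ to 33.5 CPM in Des-/- libraries.

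Of 14 inhibitors and feedback genes, 4 were higher and 1 lower without swimming. That was 35.7% of the list, near the 32% of all genes called there. The small proteoglycan Bgn, which can bind the ligands, was higher by 1.84 (SE 0.41) and the repressor Tgif1 by 1.77 (SE 0.42), while the phosphatase Ppm1a fell by 0.77 (SE 0.14, edgeR adjusted p 0.00204). After swimming Bgn was higher by 1.41 and the ubiquitin ligases Smurf2 and Smurf1, which partner with Smad7, fell by 0.81 and 0.52.

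The target list held the largest changes, with 12 of 19 genes higher, 0 lower and a median log2 change of 1.79 without swimming. The matrix gene Comp went from a mean of 14.3 to 91.6 CPM (log2 change 2.67, SE 0.44, edgeR adjusted p 0.00151) and the transcription factor gene Junb from 356 to 1233 CPM (1.79, SE 0.31, edgeR adjusted p 0.00182). After swimming 3 were called, all higher, and Comp (3.18) and Junb (1.74) were the first by p. Col1a1 and Col1a2 of this list and Dcn of the inhibitor list are also in the fibroblast marker list above. With both Des-/- replicate 3 libraries left out, 32 genes of the lists were called without swimming, the same number as with all libraries, and 16 after swimming (28% and 11.9% of all genes were). With replicate 3 of Des-/- non-swim alone left out the counts were 17 and 22 (21.1% and 16.1% of all genes). Without swimming, 15 were called with replicate 2 and 18 with replicate 3 of Des+/+ non-swim left out (19.5% and 21.9% of all genes). After swimming, 4, 4 and 1 were called with replicate 1, 2 or 3 of Des+/+ swim left out (4.19%, 6.11% and 0.55% of all genes). With replicate 1, 2 or 3 of Des-/- swim left out 3, 5 and 7 were called (3.76%, 4.74% and 4.97%), and 7 without replicate 3 of Des+/+ non-swim (6.95%).

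**Figure D5:**
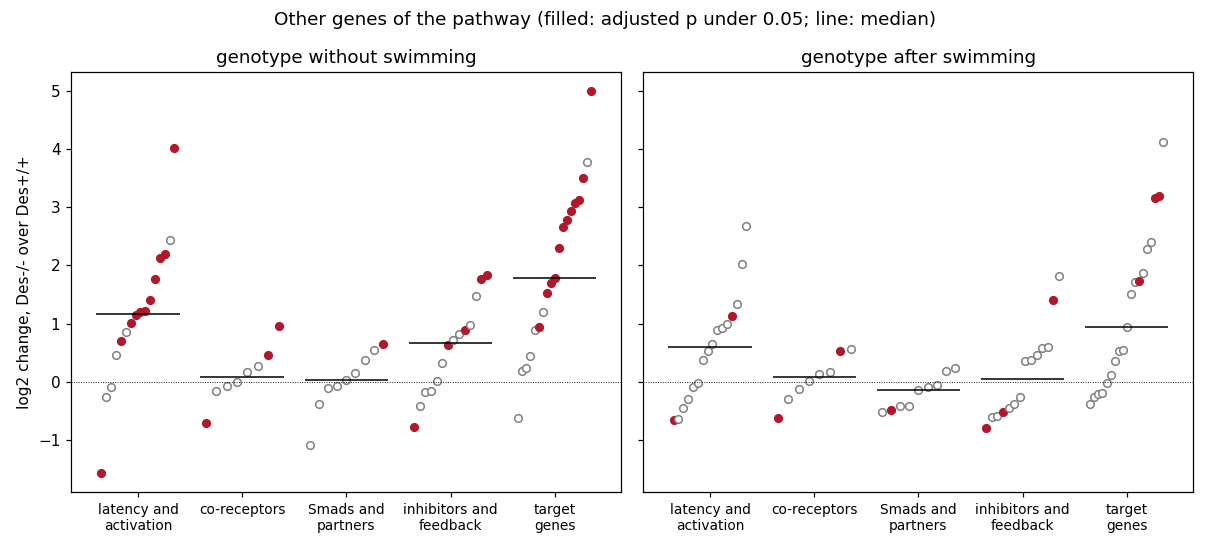
Log2 change between genotypes of the 66 other genes of the pathway, by list, without swimming on the left and after it on the right, with filled points for an adjusted p under 0.05 and a line at each list's median. The target list has a median of 1.79 on the left and 0.94 on the right.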

How the data were processed

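RNA from adult cardiomyocyte preparations was measured by single-end sequencing in 12 libraries. The authors aligned reads to GRCm38 with HISAT2 2.2.1 and counted them per gene with HTSeq in reverse-strand mode, and the deposited values are raw counts with no normalisation. The labels name an unstranded kit and the methods a directional one. Rows that name no gene were left out (reads in no feature came to 34.0% to 64.5%). The groups come from the sample labels. The members and gene lists were chosen with earlier results of these data known.

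Counts were fitted with edgeR 4.0.16 in R 4.3.3: filterByExpr (13158 genes kept), TMM scaling, 4 group means over 12 libraries (8 residual degrees of freedom), quasi-likelihood tests of 5 contrasts and Benjamini-Hochberg adjustment. Pearson correlations used log2 CPM with a prior count of 2. Exon lengths are from GENCODE M21, which matched 21488 genes. Outside the members, the 2 list genes with the smallest adjusted p in each direction were named per list and genotype comparison, and other genes were named after their values were seen. Code was tested on simulated data. Alternatives were DESeq2 1.42.0, RLE and upper-quartile scaling, no filter, a mean count of at least 20, the study's filter, fits of the compared libraries alone, libraries left out and a block for replicate number. With the 6 Des-/- libraries the block was added after seeing the data, because same-numbered Des-/- libraries deviated together (correlations 0.365, 0.316 and 0.602); the other pairs of groups did not. A floor of 3 counts was 0.694 CPM at the shallowest depth, and it covers counting error only.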

Additional observations from a re-analysis of the deposited data

Results flagged for a closer look

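The genotype difference of Smad7 had a positive sign without swimming and a negative one after it, and neither was called. Every Des-/- non-swim library lay above the Des+/+ non-swim mean and every Des-/- swim library below the Des+/+ swim mean, but the groups overlapped in both comparisons. Replicate 3 of Des+/+ non-swim, at 104 CPM, was above all Des-/- non-swim libraries, and replicate 2 of Des-/- swim, at 134 CPM, was above replicate 2 of Des+/+ swim, at 119 CPM. The interaction term was -0.87 on the log2 scale (SE 0.35), and it did not pass the threshold (edgeR adjusted p 0.256).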

How the results depend on the processing

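The 6 increases without swimming were called under DESeq2, where 26.6% of all genes were. RLE and upper-quartile scaling (32.3% and 34.4% of all genes) and the other filters (22.5% to 33.8%) also kept all 6. So did the fit with both Des-/- replicate 3 libraries left out (28%). Tgfbr1 was lost with only the libraries compared (edgeR adjusted p 0.0709, 26.5% of all genes called) and Tgfb2 with the replicate block (31%). With 1 library left out the count of members ranged from 0 to 6, and that of other pathway genes from 15 to 37. Those fits called 19.5% to 34.4% of all genes. After swimming 1 member and 11 other genes were called in the fit of all libraries (10.6% of all genes were). DESeq2 gave 3 and 17 (12.6% of all genes). Upper-quartile scaling gave 2 members (10.7% of all genes), as did no filter (6.19%). Fitting only the libraries compared gave 0 members (8.66%), as did the replicate block (9.95%). The study filter, which here and below uses an unadjusted p, gave 3 and 21 (17.6% of all genes). With 1 library left out the counts were 0 to 3 and 1 to 22, where 0.55% to 16.1% of all genes were called. For swimming in Des+/+, 0 and 0 became 2 and 6 (DESeq2, 4.37% of all genes), 1 and 1 (only the libraries compared, 2.25%), 2 and 6 (both Des-/- replicate 3 libraries out, 5.62%) and 2 and 8 (study filter, 10.3%). For swimming in Des-/-, other genes became 4 under DESeq2, 5 with both replicate 3 out and 16 under the study filter. The shares of all genes were 1.84%, 0.545% and 8.6%. In the 6 libraries with a replicate block 2 other genes and 0 members were called (0.639% of all genes). The block pairs libraries by their number, and the labels do not state such a pairing. For the interaction other genes became 2 (DESeq2, 1.76% of all genes) and 9 (study filter with its unadjusted p, 2 members and 13.1% of all genes). The smallest edgeR adjusted p of any gene for the interaction was 0.174. Elsewhere the replicate block changed no other member call.

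Uncalled values that changed sign were as follows. After swimming: Tgfb1 0.0119 (upper-quartile), and Tgfbr1 -0.17 and Tgfbr2 -0.13 (both replicate 3 out). Swimming in Des+/+: Tgfbr2 0.0121 (DESeq2), 0.0103 (RLE), 0.0018 (upper-quartile), 0.0321 (no filter), 0.0624 (only the libraries compared) and 0.0718 (both out), and Tgfb3 0.0175 (only compared) and 0.0258 (both out). Swimming in Des-/-: Smad7 -0.0020 (no filter) and -0.0206 (6-library block). Interaction: Ltbp1 -0.0238 (no filter) and Tgfb2 -0.0827 (both out). With 1 library left out, ranges that crossed 0 after swimming were -0.27 to 0.0697 (Tgfb1), -0.19 to 0.44 (Tgfbr1) and -0.13 to 0.21 (Tgfbr2). For the interaction they were -0.13 to 0.26 (Ltbp1), -2.63 to 1.15 (Ltbp2), -0.0398 to 0.44 (Tgfb2), -0.86 to 0.0655 (Tgfb3) and -0.12 to 0.12 (Tgfbr3). For swimming they were -0.41 to 0.41 (Ltbp2), -0.12 to 0.0243 (Tgfb3) and -0.16 to 0.0864 (Tgfbr2) in Des+/+, and -2.78 to 1.00 (Ltbp2), -0.26 to 0.16 (Smad7), -0.29 to 0.0974 (Tgfb1), -0.92 to 0.0113 (Tgfb3) and -0.92 to 0.0110 (Tgfbr1) in Des-/-. The causes were not tested. Upper-quartile scaling moved the median of all genes by 0.10 without swimming and the share of calls that were higher from 43.7% to 55.1%, and after swimming from 47.3% to 67.5%.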
